A study of Mus musculus with 18 samples.

Results

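The genes described are those of the cytosolic ribosomal proteins, read across a time course of myocardial infarction in the mouse. Members were genes whose symbol has the Rpl or Rps form, together with Rplp0, Rplp1, Rplp2 and Rpsa, without pseudogene symbols (-ps), and with a mean of at least 50 counts per library. Of 30583 genes in the count table, 88 carried such a symbol and 84 reached that mean, 49 of the large (60S) and 35 of the small (40S) subunit. The 4 below it were Rpl32l (mean 5.11 counts), Rpl39l (5.22), Rpl36al (10.7) and Rpl24 (40 counts), and the lowest inside it were Rps3a3 (59.9) and Rps3a2 (89.3 counts). Rps3a3 held 36, 41 and 62 counts in sham and 100, 113 and 117 at 72 h, so it reached the mean through the 72 h libraries. Its call as higher at 72 h, counted below, is thus not independent of the rule. All 84 also passed the filter on low counts used for testing. The annotation calls 80 of them protein coding and 4 of them processed pseudogenes (Rpl6l, Rps3a2, Rps3a3 and Rps4l).

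The libraries came from 18 male C57BL/6JR mice aged 12 weeks, in 6 groups of 3. In 5 groups ligation of the left anterior descending (LAD) artery produced an infarct, with tissue taken at 10 min, or at 1, 6, 24 or 72 h. Sham animals (0 h) were operated on in the same way, and the thread was left untied. All mice shared sodium pentobarbital anaesthesia for surgery and isoflurane before death, and poly(A) RNA of the left ventricle was sequenced, 1 library per mouse. In the ligated groups this was the infarcted left ventricle.

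Each ribosome holds a single copy of nearly every ribosomal protein beside the ribosomal RNAs, so the genes are usually expressed in a fixed proportion to one another. Their mRNAs belong to the TOP class: they begin with a 5′ terminal oligopyrimidine tract, through which the kinase mTOR and the RNA-binding protein LARP1 regulate translation. A few proteins have tissue-restricted paralogues. The best known in the heart is RPL3L, which replaces RPL3 in ribosomes of heart and skeletal muscle.

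Promoter windows were available in RefSeq (GRCm38.p6) for 60 members, 24 had none, and the 60 had 72 annotated windows of 300 bases, from 250 before to 50 after the start. The pyrimidine stretch CTCTTTC, taken as a TOP-like core, lay on the gene strand of 15 of the 72 windows (20.8%), against 3.99% of 32851 windows of all genes. On either strand the shares were 29.2% and 8.16%. The ETS core CCGGAAG was on the gene strand of 23.6% of the member windows and 4.77% of all, the GC box GGGCGG on 29.2% and 23.4%, and the TATA box TATAAA on 8.33% and 8.32%. The 4 strings were searched separately and none contains another. A match is a string in a window and no evidence of a site. The 6 windows printed here run from 50 bases before to 30 bases from the annotated start on the gene strand, 5′ to 3′, with the core in capitals. Rpl28 and Rpl35 show the core at the start, and Rpl3l, Rpl22l1, Rpl12 and Rps12 are genes that the results turn on and whose printed stretch lacks these 7 letters. Rpl3l has a further window that is not printed.
Rpl28 (chr7:4792915-4792994, plus strand): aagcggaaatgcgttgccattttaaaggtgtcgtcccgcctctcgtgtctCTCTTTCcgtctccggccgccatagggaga
Rpl35 (chr2:39005102-39005181, minus strand): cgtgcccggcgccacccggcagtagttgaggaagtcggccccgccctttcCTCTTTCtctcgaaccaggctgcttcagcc
Rpl3l (chr17:24727776-24727855, plus strand): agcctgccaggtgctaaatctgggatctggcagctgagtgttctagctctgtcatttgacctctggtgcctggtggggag
Rpl22l1 (chr3:28805458-28805537, plus strand): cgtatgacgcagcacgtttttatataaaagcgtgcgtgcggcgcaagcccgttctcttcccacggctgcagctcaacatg
Rpl12 (chr2:32961662-32961741, plus strand): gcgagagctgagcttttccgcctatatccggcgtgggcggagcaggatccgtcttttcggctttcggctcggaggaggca
Rps12 (chr10:23787180-23787259, minus strand): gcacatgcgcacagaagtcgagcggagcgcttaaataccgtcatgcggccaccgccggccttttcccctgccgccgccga

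Library totals lay between 18199172 and 25062351 counts. Levels are given in CPM (a gene's read counts relative to the library's total, scaled with edgeR's TMM factors, which lay between 0.825 and 1.43), and a gene is called changed at an edgeR quasi-likelihood adjusted p under 0.05 over 16311 genes tested. The labels name cardiomyocytes as the cell type, while their protocol describes no separation of cells. All 9 cardiomyocyte markers were present, summing to 71353 to 77318 CPM in sham libraries, and so were all 8 macrophage markers (292 to 337 CPM), all 7 fibroblast markers (794 to 902 CPM) and all 5 endothelial markers (1148 to 1267 CPM). No marker of these 4 lists was at 0 in any group. The share of mitochondrially encoded RNA was 23.8% to 26.1% in sham and 8.41% to 10.5% at 72 h.

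Ribosomal protein mRNA showed no called change within the first hour, rose at 6 h and was higher still at 72 h. The median log2 fold change of the 84 genes against sham was -0.02 at 10 min, -0.04 at 1 h, 0.26 at 6 h, 0.35 at 24 h and 0.58 at 72 h. As folds, the last 3 are 1.20, 1.28 and 1.498. Over all genes tested the medians were 0.01, -0.01, -0.01, 0.01 and 0.03. The medians of the subunits were close, at 72 h 0.59 for the large and 0.58 for the small one. In bulk tissue, fewer cells of a type and less RNA per cell cannot be told apart.

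**Figure D1:**
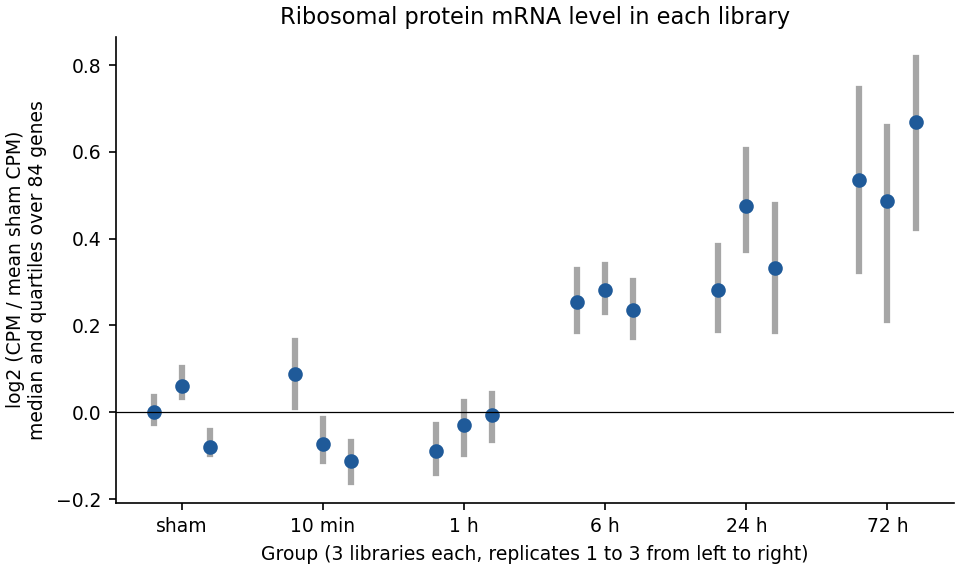
log2 ratio of each gene's CPM to its mean in sham, as the median (point) and quartiles (bar) over the 84 ribosomal protein genes, in each of 18 libraries by group. The 9 libraries of sham, 10 min and 1 h have medians between -0.11 and 0.09, those of 6 h between 0.24 and 0.28, those of 24 h between 0.28 and 0.47, and those of 72 h between 0.49 and 0.67.

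These 84 genes also took a larger part of each library at 6, 24 and 72 h. Such shares are on the scale of library totals, on which the median of all genes tested changed too. Against sham that median stood at -0.12 at 6 h, 0.20 at 24 h and 0.61 at 72 h on the log2 scale. In sham the libraries held 1.93%, 2.005% and 1.92% of their counts in the 84 genes, and at 72 h 4.12%, 3.91% and 4.62%. The groups do not overlap, and the mean rose 2.16-fold, from 1.95% ± 0.0465 to 4.22% ± 0.363 (SD, n = 3). At 1 h the mean was 1.87% ± 0.0403, with all 3 libraries just below sham. At 6 h it was 2.18% ± 0.0925 and at 24 h 2.89% ± 0.379, and every library of both groups lay above all sham libraries. The exact permutation p against sham was 0.1 at 1, 6, 24 and 72 h, the smallest that 3 against 3 allows (0.125 adjusted over 5 times). Within counts outside the mitochondrially encoded genes, the share rose from 2.61% to 4.67%, 1.79-fold.

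At 10 min and at 1 h, edgeR called none of the 84 genes, with 0.0307% and 0.288% of all genes called higher and 0.0429% and 0.00613% called lower at those times. At an unadjusted p under 0.05, edgeR gave 1 member at 10 min (Rpl17) and 3 at 1 h (Rpl21, Rpl7l1 and Rps4l), and DESeq2 also called none after adjustment. At 6 h, 37 of the 84 rose and 0 fell, beside 16.3% of all genes higher and 12.2% lower. In 68 of them all 3 libraries lay above all 3 sham libraries, as in 23.1% of all genes. The number called at 6 h rests on single libraries: without 1 library it ranged from 9 (without sham replicate 3) to 47, and it was 10 without sham replicate 1, 11 without 6 h replicate 1 and 19 without 6 h replicate 2 or 3.

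At 24 h, 65 members rose and 2 fell (all genes: 23.7% higher, 20.2% lower), and 70 had all libraries above sham (all genes: 28.0%). At 72 h, 67 rose and 3 fell (all genes: 34.2% higher, 32.2% lower), with 70 separated upwards (39.3%). The change at 72 h ran from -2.54 to 1.48 on the log2 scale: 9 genes were up by 1 or more, 54 by 0.3 to 1, 14 by 0 to 0.3, and 7 were below 0. By pattern of calls, 33 genes were higher at 6, 24 and 72 h, 30 were first called at 24 h, 6 at 72 h alone, and 11 were never called higher. The share of all genes with each pattern was not computed. The split also rests on the 6 h count, which ranged from 9 to 47 without 1 library, so it is no stable timing. Across all 6 groups an edgeR F test called 79 of the 84 (all genes: 78.4%). Rps13, Rps21, Rps3a3 and Rps4l were among the exceptions.

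Cell type markers also changed over these times, most of them little at 6 h. Summed cardiomyocyte markers at 6, 24 and 72 h stood at 0.93, 0.57 and 0.28 of sham, and 1, 7 and 9 of the 9 were called lower. Macrophage markers stood at 1.05, 2.04 and 14.3 times sham, with 1, 7 and 8 of the 8 called higher and 1, 0 and 0 lower. Fibroblast markers stood at 0.88, 1.31 and 16.6 times, with 1, 5 and 7 of the 7 higher and 3, 1 and 0 lower. Neutrophil markers stood at 107.9, 91.2 and 21.0 times (7, 7 and 6 of 7 higher, 0 lower). A single library carried much of these sums: the ratio was 53.8 without 6 h replicate 1 and 31.0 without 24 h replicate 3, alternatives chosen after the data were seen. Proliferation markers stood at 0.82, 3.55 and 82.3 times sham (0, 5 and 5 of 5 higher, 0 lower), and at 1.90 at 24 h without 24 h replicate 2. Endothelial markers were at 1.13, 0.83 and 0.66 of sham and erythroid markers at 1.59, 0.96 and 0.43. Markers of fast skeletal muscle, lymphocytes and adipocytes summed to at most 6.67, 5.25 and 2.49 CPM in any library. The part of these shifts in the ribosomal protein values was not tested.

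**Figure D2:**
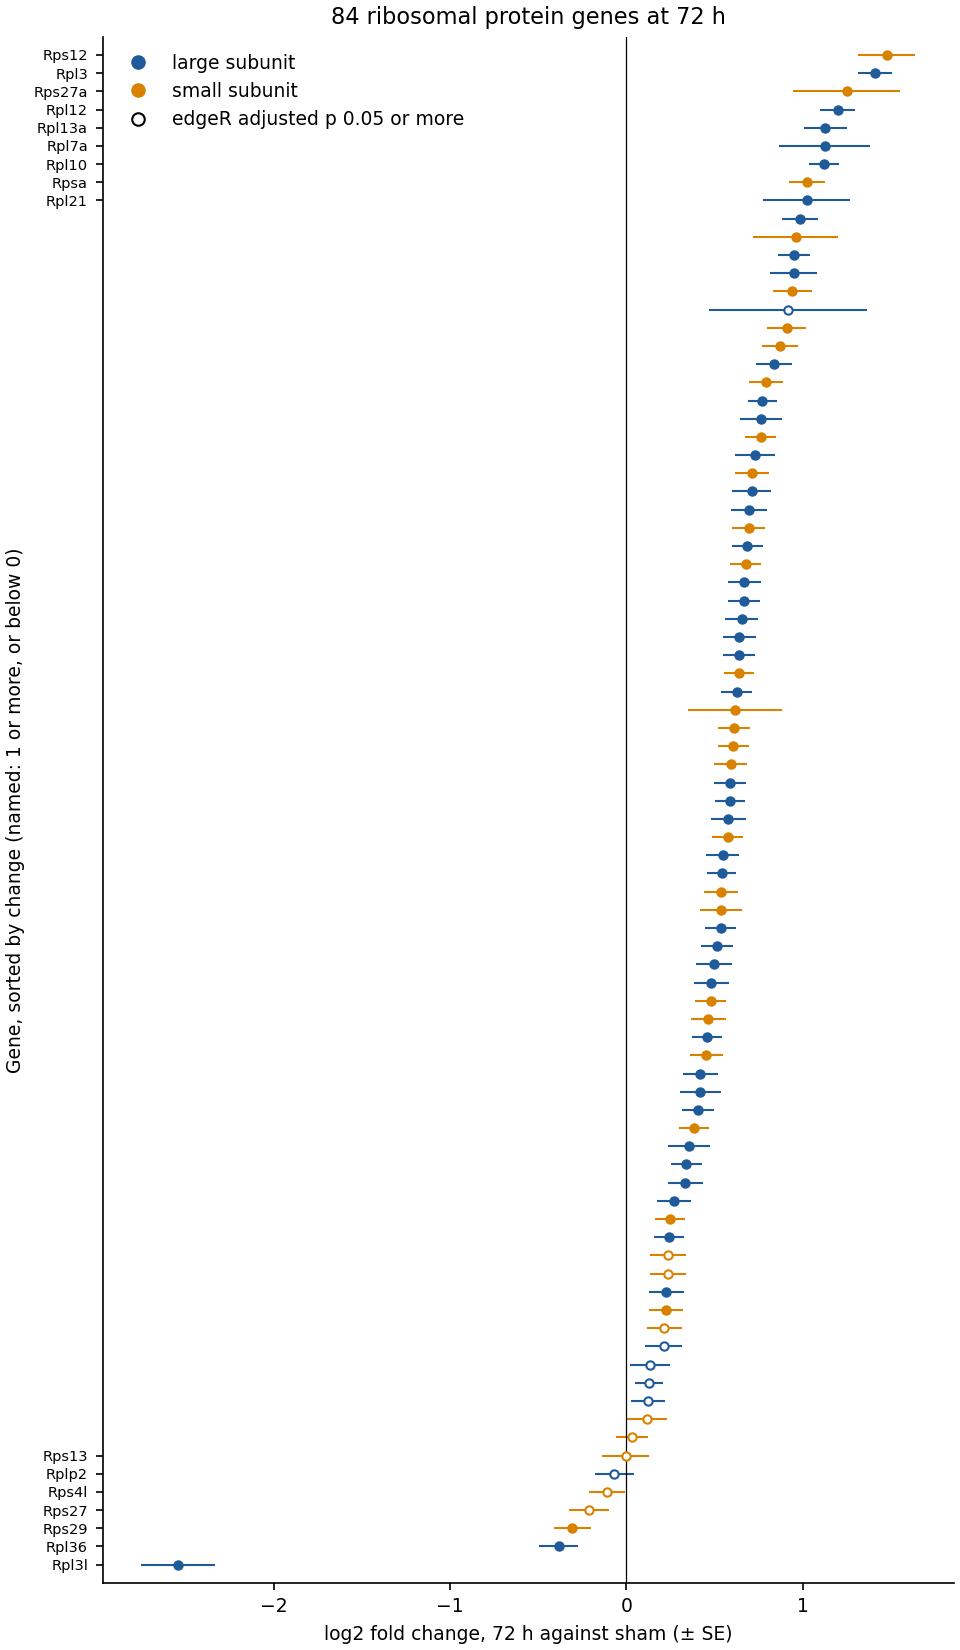
log2 fold change of each of the 84 genes at 72 h against sham (point) with its SE (bar), sorted, with large subunit genes in blue and small subunit genes in orange and open points for an edgeR adjusted p of 0.05 or more; genes at 1 or more or below 0 are named. Rpl3l lies apart at -2.54, the other 83 genes run from -0.38 (Rpl36) to 1.48 (Rps12), and the signs of the 6 genes nearest Rpl3l (Rpl36, Rps29, Rps27, Rps4l, Rplp2 and Rps13) turn positive under library total scaling.

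The gene that stood apart was Rpl3l, the muscle paralogue, and its partner Rpl3 moved the other way. Rpl3, on chromosome 15 (80077791-80091868, GRCm38), encodes a protein of the peptidyl transferase centre. Its CPM was 217, 206 and 221 in sham, 302, 308 and 271 at 6 h, 429, 497 and 535 at 24 h, and 537, 582 and 589 at 72 h. All 9 late libraries lay above the sham range. Against sham its log2 fold change was 0.45 at 6 h (SE 0.096, edgeR adjusted p = 0.00189), 1.18 at 24 h (2.01e-07) and 1.41 at 72 h (9.32e-10), a 2.66-fold rise.

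Rpl3l lies on chromosome 17 (24727820-24736143). Its CPM was 276, 286 and 274 in sham and 253, 279 and 286 at 6 h, which overlap. At 24 h it was 145, 127 and 80.5 CPM and at 72 h 66.4, 40.4 and 36.5 CPM, so that the 3 groups from 6 h on do not overlap. The log2 fold change against sham was -0.03 at 6 h (edgeR adjusted p = 0.922), -1.25 at 24 h (0.000139) and -2.54 at 72 h (SE 0.208, 1.41e-08), 5.83-fold lower. It also fell between neighbouring times, by 1.22 from 6 to 24 h (0.0004) and by 1.30 from 24 to 72 h (4.3e-05).

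**Figure D3:**
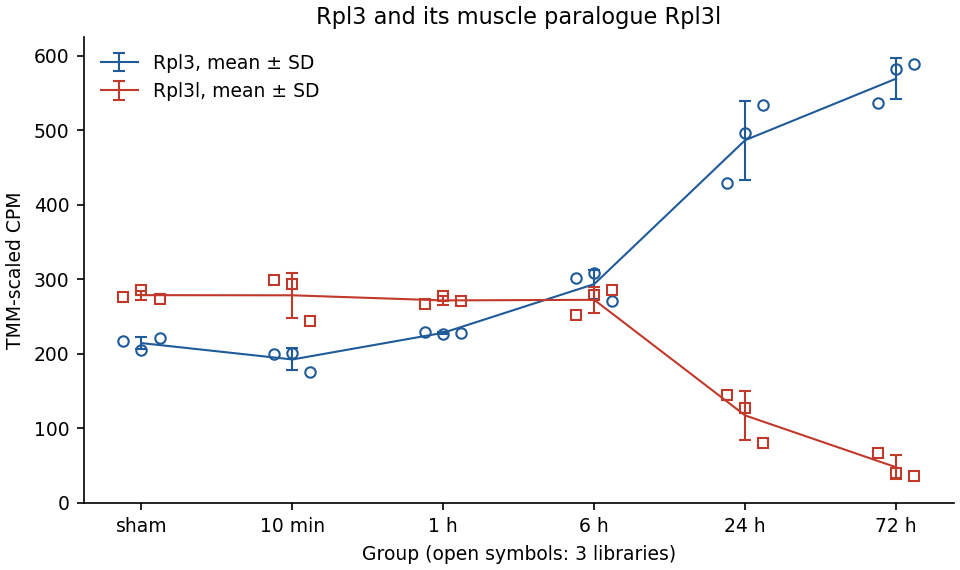
TMM-scaled CPM of Rpl3 (blue) and Rpl3l (red) by group, as the mean with SD (lines and bars) and 3 libraries (open symbols). Rpl3l is above Rpl3 in sham (279 against 214 CPM) and far below it at 72 h (47.8 against 570 CPM).

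As a share of the counts of the pair, Rpl3l made up 56.5% ± 1.47 in sham, 59.1% at 10 min, 54.3% at 1 h, 48.1% ± 2.93 at 6 h, 19.5% ± 6.09 at 24 h and 7.78% ± 2.81 at 72 h (SD, n = 3). Single libraries ranged from 55.4% to 58.2% in sham and from 5.84% to 11% at 72 h. The exact (Clopper-Pearson) 95% interval of the lowest, 5.52% to 6.18%, covers counting error only. Every library at 6, 24 and 72 h lay below all sham libraries (exact permutation p = 0.1, adjusted 0.125, at each time). Per length of gene (FPKM), the share was 71.2% in sham and 13.7% at 72 h. Set against the summed cardiomyocyte markers of the same library, which fell too, the log2 ratio of Rpl3l minus that in sham was 0.07 at 6 h, -0.46 at 24 h (SD 0.0997) and -0.73 at 72 h (SD 0.260). All 3 libraries of both late times lay below sham (exact permutation p = 0.1, adjusted 0.25). Taken singly, the 9 markers changed by -1.23 to -0.34 at 24 h and by -2.32 to -1.19 at 72 h. Rpl3l, at -1.25 and -2.54, lay close to the lowest of them.

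In the other paralogue pairs the shares moved by fewer percentage points. Rpl22l1, a paralogue of the RNA-binding protein Rpl22, rose from 21.7, 26.3 and 21.3 CPM in sham to 47.3, 41.0 and 49.0 CPM at 72 h, without overlap. That is a log2 fold change of 0.99 (edgeR adjusted p = 1.31e-07), beside 0.34 for Rpl22 (0.00247). Its share of the pair went from 12.4% ± 0.827 to 18.2% ± 0.415, and every 72 h library was above all sham libraries (exact permutation p = 0.1, adjusted 0.125).

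Rps27l, a p53-inducible form of Rps27, held 15.5% ± 1.18 of its pair in sham, 20.8% ± 1.26 at 24 h and 20.0% ± 0.583 at 72 h. It rose by 0.25 at 72 h (edgeR adjusted p = 0.0172), a call lost without sham replicate 2 (0.23) or 72 h replicate 1 (0.21) and with no filter (0.26). Rps27 had a log2 value of -0.21 (0.103). Rpl7l1, a nucleolar assembly protein related to Rpl7, went from 16.4% ± 0.824 to 12.2% ± 1.43 of its pair, where Rpl7 rose by 0.63 (5.32e-06) beside 0.13 for Rpl7l1 (0.167). Rps4l, an annotated pseudogene of Rps4x, went from 9.56% to 5.46% as Rps4x rose by 0.76 (5.16e-07) and Rps4l stood at -0.11 (0.356). Rpl36al and Rpl39l, both under the rule's mean count, held 0.122% and 0.0541% of their pairs in sham and 0.421% and 0.190% at 72 h.

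The largest increase at 72 h was that of Rps12, a small subunit protein. Its sham libraries held 64.9, 112 and 72.5 CPM, those of 24 h 127, 147 and 129.9 CPM, and those of 72 h 204, 227 and 265 CPM. The 72 h libraries lay above all others, at a log2 fold change of 1.48 (SE 0.161, edgeR adjusted p = 2.54e-07), 2.79-fold. Rpl12, a protein at the base of the ribosomal stalk, went from 167, 192 and 169 CPM to 226, 245 and 217 CPM at 6 h, 284, 342 and 355 CPM at 24 h and 388, 389 and 435 CPM at 72 h. These 4 groups do not overlap, and Rpl12 rose by 0.38, 0.90 and 1.20 (0.00708, 3.41e-06 and 7.64e-09).

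Rpsa, the laminin receptor protein of the small subunit, held 438, 439 and 443 CPM in sham and 884, 856 and 947 CPM at 72 h, a rise of 1.03 (edgeR adjusted p = 7.52e-08). Rpl10, which joins the large subunit late in its assembly, rose from 222, 228 and 212 CPM to 454, 466 and 520 CPM, by 1.12 (4.1e-09), and it also rose between 6 and 24 h (0.46) and between 24 and 72 h (0.39). Neither gene's groups overlap. Rpl13a, a protein known for a role outside the ribosome in interferon-gamma response, rose from 11.9, 9.96 and 11.1 CPM to 22.8, 23.0 and 26.3 CPM, by 1.13 (2.45e-07). About 35.4% of its exon bases overlap other genes.

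Rps27a encodes a fusion of ubiquitin and a small subunit protein, and its libraries spread widely. They held 107, 72.1 and 64.1 CPM in sham, 87.4, 112 and 93.6 CPM at 24 h and 255, 209 and 114 CPM at 72 h. The lowest 72 h library was close to the highest of sham, and the rise of 1.25 had an SE of 0.301 (edgeR adjusted p = 0.00199). The rise from 24 to 72 h, 0.98 (0.0136), was not called without 72 h replicate 1 (0.72) or without 24 h replicate 1 (0.91).

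Rpl21 led the increases at 6 h, with 76.9, 73.1 and 93.3 CPM against 35.2, 34.9 and 38.1 CPM in sham, a log2 fold change of 1.17 (edgeR adjusted p = 0.00303). Its libraries at 1 h (66.7, 43.9 and 71.0 CPM) already lay above sham, though not by the adjusted test (adjusted p = 0.612). At 24 h they held 85.5, 54.3 and 42.9 CPM, and the call there (0.76) was lost without 24 h replicate 1 (0.44) or without sham replicate 1 or 2 (0.74 and 0.73). Rpl41, the shortest ribosomal protein, rose from 346, 362 and 363 CPM to 472, 541 and 468 CPM at 6 h, by 0.47 (0.0133), and by 0.95 at 72 h. Its 6 h call was lost without sham replicate 1 (0.44) or 6 h replicate 2 (0.39), and under library total scaling (0.36) and both limma fits on FPKM (0.35 each). The pseudogene Rps3a2, at 2.63 CPM in sham, rose by 0.68 at 6 h (0.0452), a call lost under 19 of 28 alternatives (0.45 to 0.74), among them the replicate block and leaving out any sham or 6 h library. Its call at 24 h (0.90) was lost without 24 h replicate 2 (0.46) and with only the libraries compared (0.90).

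Of the acidic stalk proteins, which recruit the translational GTPases, Rplp0 and Rplp1 were higher at 72 h and Rplp2 was not called there. Rplp0 held 697, 716 and 685 CPM in sham, 929.6, 891 and 867 CPM at 6 h and 1059, 985 and 1109 CPM at 72 h. The late groups lay above sham, with rises of 0.36 (edgeR adjusted p = 0.0073) and 0.59 (1.74e-05). Rplp1 rose by 0.70 at 72 h (1.02e-05). Rplp2 held 283, 280.1 and 258 CPM in sham, 305, 384 and 328 CPM at 24 h and 263, 246 and 273 CPM at 72 h. It rose at 24 h by 0.31 (0.0317), a call lost without 24 h replicate 2 (0.21) or any sham library (0.27 to 0.33). It fell from 24 to 72 h by 0.38 (0.00862), a fall that was not called without 24 h replicate 2 (-0.28) and was 0.0078 upwards under library total scaling.

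In TMM-scaled CPM, Rps6, the substrate of S6 kinase, reached most of its 72 h rise by 6 h. Its libraries held 318, 342 and 301 CPM in sham, 426, 427 and 423 CPM at 6 h and 464, 464 and 503 CPM at 72 h. The log2 fold changes were 0.41, 0.51 and 0.58 (edgeR adjusted p = 0.00223, 0.000232 and 1.42e-05), and all late libraries were above sham. That timing rests on the TMM scale. With library totals as the scale, the ribosomal protein median was 0.15 at 6 h and 1.17 at 72 h. Rpl5, Rpl11 and Rpl23, which bind the p53 regulator MDM2 when free of ribosomes, rose at 72 h by 0.54 (1.34e-05), 0.54 (3.26e-05) and 0.52 (6.13e-05). Rps19 and Rps14, whose loss of a copy is known in human anaemias, rose by 0.87 (5.33e-07) and 0.54 (9.82e-05). Rpl38, known for selective translation of Hox mRNAs, had 0.27, 0.25 and 0.13 at 6, 24 and 72 h and was called at none of these times (edgeR adjusted p = 0.085, 0.0869 and 0.311).

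Besides Rpl3l, only Rps29 and Rpl36 were called lower than sham. Rps29, a small zinc-binding protein, held 258, 258 and 268 CPM in sham, 303, 283 and 297 CPM at 6 h, 211, 243 and 191 CPM at 24 h and 224, 189.9 and 220.3 CPM at 72 h. The late libraries lay below sham, at -0.28 at 24 h (edgeR adjusted p = 0.0369) and -0.31 at 72 h (0.0149), but with library totals as the scale the 72 h value was 0.28 upwards. The 24 h call was lost on leaving out any sham library or 24 h replicate 1 or 3 (-0.29 to -0.20), and the 72 h call without 72 h replicate 2 (-0.24).

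Rpl36, a small large-subunit protein, held 382, 361 and 319 CPM in sham, 353, 400 and 347 CPM at 24 h and 292, 243 and 278 CPM at 72 h. Its 72 h libraries lay below all others, at -0.38 against sham (edgeR adjusted p = 0.00546), but at 0.20 upwards with library totals as the scale. Under library total scaling the median of all genes stood at -0.12 at 6 h, 0.20 at 24 h and 0.61 at 72 h. Relative to that median the 84 genes stood 0.27, 0.35 and 0.56 higher, and their calls became 5 higher and 0 lower at 6 h, 73 and 1 at 24 h, and 82 and 1 at 72 h. Rpl3l was the 1 gene then lower at 24 and 72 h.

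Between neighbouring times, the first step was from 1 to 6 h, where 52 members rose and 0 fell (all genes: 14.5% higher, 10.0% lower). All 84 had a positive log2 value there, with a median of 0.30. That count fell to 17 without 1 h replicate 1, 24 without 1 h replicate 2, and 30 or 31 without 6 h replicate 1 or 2. From 10 min to 1 h edgeR called none (all genes: 0.251% higher, 0.0552% lower), with 2 at an unadjusted p under 0.05 and none by DESeq2.

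From 6 to 24 h, 12 rose, a share at the background (all genes: 14.2% higher, 13.7% lower), and 3 fell. The rises were led by Rpl3 (0.73), Rpl12 (0.51), Rpl10 (0.46) and Rpl13a (0.43, not called without 24 h replicate 2, at 0.28), and the falls were Rpl3l, Rps27 (-0.47, edgeR adjusted p = 0.00469) and Rps29 (-0.45, 0.00389). With library totals as the scale 67 rose and 1 fell, so that the share of higher among called members moved from 80.0% to 98.5%. The count of 12 became 24 without 24 h replicate 1, 5 without 24 h replicate 2 and 6 without 6 h replicate 3.

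From 24 to 72 h, 31 rose (all genes: 24.4%) and 4 fell (26.1%). Rps27a (0.98), Rps12 (0.78) and Rps4x (0.54) led the rises, with Rps4x going from 322, 347 and 318 CPM to 465, 449.9 and 516 CPM. The falls were Rpl3l, Rpl36, Rplp2 and Rpl7l1, the last not called without 24 h replicate 3 (-0.17) or 72 h replicate 1 or 3 (-0.20 and -0.21). Under library total scaling Rplp2 and Rpl7l1 turned to 0.0078 and 0.16 and the call of Rpl36 was lost (-0.05). The count of 31 fell to 12 without 72 h replicate 3 and to 17 without 24 h replicate 1.

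**Figure D4:**
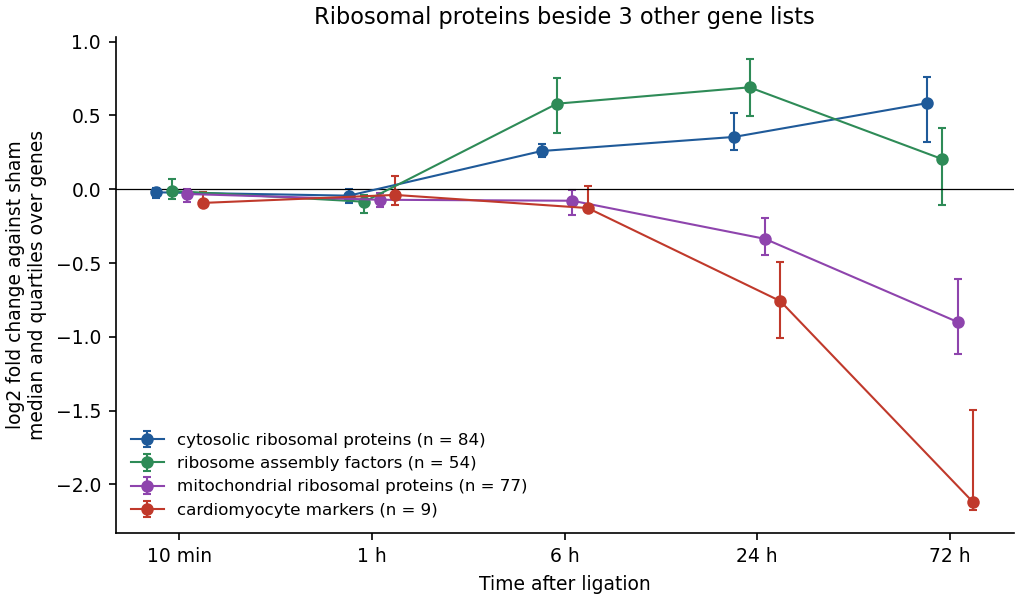
Median log2 fold change against sham with quartiles over genes, by time after ligation, for 84 cytosolic ribosomal proteins (blue), 54 ribosome assembly factors (green), 77 mitochondrial ribosomal proteins (purple) and 9 cardiomyocyte markers (red). The assembly factors peak at 24 h (0.69) and are at 0.20 at 72 h, where the ribosomal proteins are at 0.58, the mitochondrial ribosomal proteins at -0.90 and the cardiomyocyte markers at -2.12.

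On the TMM scale, other parts of the translation machinery took different courses. Among subunit proteins whose symbols fall outside the rule, Rack1 and Fau were called higher at 6, 24 and 72 h. Rack1, a signalling scaffold on the 40S subunit, rose by 0.32, 0.52 and 0.89, and Fau, the precursor of the 40S protein eS30, by 0.42, 0.44 and 0.79 (edgeR adjusted p at 72 h = 3.28e-08 and 1.62e-06).

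Among 19 translation factors and partners of the TOP class, 7 rose and 0 fell at 6 h, 8 and 1 at 24 h, and 11 and 3 at 72 h, with medians of 0.21, 0.15 and 0.26. Eef1a1, the elongation factor that brings aminoacyl-tRNA to the ribosome, rose by 1.88 at 72 h, Pabpc1, the poly(A)-binding protein, by 1.68, and the nucleolar chaperone Npm1 by 1.12. In a list of 11 muscle forms and TOP regulators, 9 were lower and 0 higher at 72 h. Eef1a2, the muscle and neuron form of the elongation factor, fell by 1.79, Tsc2, an inhibitor of mTOR signalling, fell by 0.97, and Mtor itself fell by 0.92.

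Of 54 ribosome assembly factors, which act in the nucleolus and on the way to the cytosol, 45 were higher and 0 lower at 6 h (median 0.58), 49 and 0 at 24 h (0.69), and 20 and 8 at 72 h (0.20). From 24 to 72 h, 42 of them fell and 0 rose, while 31 ribosomal protein genes rose. Nhp2, of the pseudouridylation particles, rose by 0.81, 1.32 and 1.06, and Eif6, which keeps free 60S subunits from joining, by 0.73, 1.18 and 0.75. Sbds, which helps to release Eif6, rose by 0.34 at 6 h and fell by 0.56 at 72 h. For RNA polymerase I and its factors (16 genes), 7 were higher and 2 lower at 6 h, 8 and 0 at 24 h, and 4 and 5 at 72 h. Taf1a, Polr1a and Rrn3 fell at 72 h by 1.11, 1.04 and 0.82.

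Proteins of the mitochondrial ribosome, which translates only the mitochondrial genome, went down. Of 77, 2 were higher and 2 lower at 6 h, 3 and 45 at 24 h, and 0 and 72 at 72 h (medians -0.08, -0.34 and -0.90). Mrpl28, Mrps9 and Mrpl16 fell at 72 h by 1.29, 1.28 and 1.18. The background shares given for the ribosomal protein genes hold for these lists too, and no list was tested as a set. All values of the lists are on the TMM scale, and falls on it depend on that choice. With library totals as the scale, the median of all genes stood at 0.61 at 72 h and at 0.36 from 24 to 72 h. With TMM it stood at 0.03 and -0.03. Counts and medians of the lists under library total scaling are not given here.

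Among the 80 protein-coding members, medians were higher in those with longer coding sequences. The median log2 fold change at 72 h was 0.42 for the 27 with under 400 coding bases, 0.54 for the 29 with 400 to under 600, and 0.63 for the 24 with 600 or more. At 24 h these were 0.30, 0.31 and 0.46. Other genes of the same 3 bands stood at -0.24, -0.02 and 0.00 at 72 h. Across the 80 genes, Pearson's r with log coding length was 0.04 and Spearman's rho 0.23 at 72 h, and 0.15 and 0.35 at 24 h. Across the 79 without Rpl3l, r was 0.28 and rho 0.28 at 72 h, and 0.39 and 0.40 at 24 h. This describes genes of the same 18 libraries, which are not independent replicates.

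**Figure D5:**
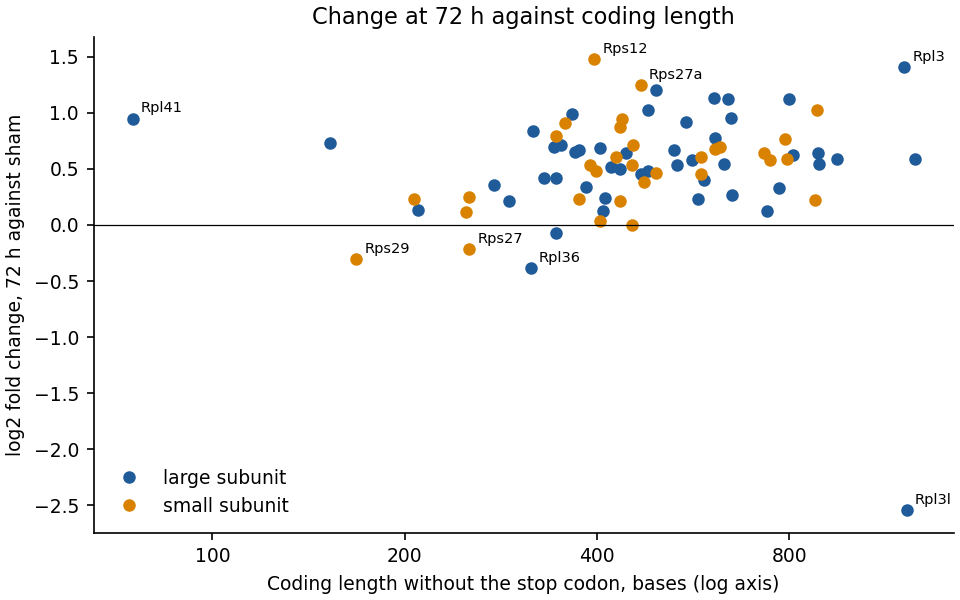
log2 fold change at 72 h against sham (vertical axis) by coding length without the stop codon (horizontal log axis) for 80 protein-coding members, large subunit in blue and small subunit in orange. Rps29, Rps27 and Rpl36, below 0 here and above 0 under library total scaling, are short, while the shortest, Rpl41, stands at 0.95 and the long Rpl3 and Rpl3l lie at 1.41 and -2.54.

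The 30 members that host a small nucleolar RNA in the annotation had a median of 0.65 at 72 h, and the 54 others 0.52, where 26 and 41 were called higher. In 37 members some exon bases overlap another gene, and the use of strand in counting is not given in the sources used here. The mouse genome also holds many near-identical processed copies of these genes: 187 genes with -ps symbols drew reads equal to 3.40% to 4.20% of the members' counts per library. How reads that fit several places were counted is not given either. Values of single members, the 4 annotated pseudogenes included, are therefore uncertain by an amount that these shares do not bound. The members lie on 19 chromosomes, 14 of them on chromosome 7.

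Per length of gene, levels in sham spread widely. Rplp1 was highest at 887 FPKM ± 4.39 (SD, n = 3), followed by Rpl36 at 811 ± 54.8, Rps15 at 531 ± 13, Rps2 at 489.7 ± 5.41 and Rps3a1 at 452 ± 19.5. Lowest were Rpl21 at 9.85 ± 0.779, Rpl13a at 4.82 ± 0.479, Rps3a2 at 3.07 ± 0.263 and Rps3a3 at 2.61 ± 0.633, of which the last pair overlap within their SD. For 73 of the 84 genes the deposited FPKM used the summed length of all annotated exons, which can exceed the length of the main mRNA, so order between genes is approximate.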

How the data were processed

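Poly(A) RNA of 18 mouse left ventricles (6 groups of 3) was analysed. The authors deposited whole-number read counts per Ensembl gene and FPKM, per the file headers. The submitters' processing notes name cutadapt 1.18, HISAT2 2.1.0, featureCounts and the build mm10. Settings for strand and multiply mapped reads are not given in the sources used here. The deposited FPKM columns of 6 h replicates 2 and 3 held each other's counts and were exchanged. Gene names came from GENCODE M21 (30512 of 30583 IDs matched).

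Counts were tested with edgeR 4.0.16 (R 4.3.3; TMM, filterByExpr, robust glmQLFit and glmQLFTest, all 18 libraries, no covariate), with Benjamini-Hochberg adjustment over 16311 genes and 14272 left out as low. The script was tested on simulated counts. Single values (shares) were tested with two-sided exact permutation tests. Alternatives were DESeq2 1.42.0, limma 3.58.1 on log2(FPKM + 1) or + 0.1, other scalings and filters, a replicate block, only the libraries compared, and leaving out each library.

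Members and lists were chosen with earlier results of these data known, so counts over them are descriptions. Genes named are both genes of each paralogue pair, the 4 largest called and separated changes in each direction against sham, the 3 largest from 24 to 72 h, members with well known roles, and the 3 called genes of smallest adjusted p at 72 h in each other list. Rps13, Rps15, Rps21, Rps2, Rps3a1, Rps3a3, Rpl6l, Rpl17, Rpl28 and Rpl35 fall outside that rule, as do the genes named as falling between neighbouring times, and were chosen after their values were seen. Not every gene of the lists is reported here. Depth was 18199172 to 25062351 counts per library. No molecular identifiers are described, so intervals cover counting error only.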

Additional observations from a re-analysis of the deposited data

Results flagged for a closer look

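In 6 members, Rpl3l at both steps, the change against sham differed between neighbouring times in the direction opposite to most ribosomal protein genes, by edgeR's test of the difference itself. From 6 to 24 h these were Rpl3l (-1.22), Rps27 (-0.47) and Rps29 (-0.45). From 24 to 72 h they were Rpl3l (-1.30), Rpl36 (-0.44), Rplp2 (-0.38) and Rpl7l1 (-0.23). All 3 libraries of the later time lay below all 3 of the earlier one in each case. Under library total scaling both falls of Rpl3l kept their call, those of Rps27, Rps29 and Rpl36 kept their direction and lost it (-0.17, -0.14 and -0.05), and those of Rplp2 and Rpl7l1 turned upwards (0.0078 and 0.16). Groups of 3 are too small for the search for outlying libraries, which was not made.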

How the results depend on the processing

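Of 34 summary results, 22 were unchanged under every alternative run, among them counts that stayed at 0. Counts had to stay within a set fold of the main count. Medians had to move by less than the SD of the group's libraries, and shares only had to keep their direction. Among 95 calls of named genes, 55 were kept under all 28 alternatives each, 39 lost under at least 1, and 4 reversed under library total scaling and both limma fits on FPKM (the values in that order). These were Rpl7l1 from 24 to 72 h (0.16, 0.16 and 0.17), Rplp2 from 24 to 72 h (0.0078, 0.0204 and 0.0206), Rps29 at 72 h (0.28, 0.28 and 0.28) and Rpl36 at 72 h (0.20, 0.20 and 0.20). Neither scale has TMM factors. Those factors were 1.36 to 1.43 at 72 h, above the 0.91 to 0.96 of sham, and lowered the 72 h values against sham. At 6 h they were 0.83 to 0.89 and raised the values. In the same order, members higher were 5, 5 and 6 at 6 h, 11, 11 and 13 from 1 to 6 h, 67, 66 and 66 from 6 to 24 h, and 71, 74 and 73 from 24 to 72 h. Lower were 1 each at 24 h, at 72 h, from 6 to 24 h and from 24 to 72 h, and the medians were 0.1528, 0.1495 and 0.1511 at 6 h, 0.5541, 0.5383 and 0.5557 at 24 h, and 1.1714, 1.1578 and 1.1682 at 72 h. With no filter, higher members were 10 at 6 h, 29 from 1 to 6 h, 6 from 6 to 24 h and 19 from 24 to 72 h, with 1 lower at 24 h. DESeq2 gave 20 higher from 6 to 24 h (cause not tested). With only the libraries compared (fewer samples), 1 rose and 1 fell from 6 to 24 h, 10 rose from 24 to 72 h and 1 was lower at 24 h.

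Without 1 library, higher members numbered 9 to 47 at 6 h, 45 to 68 at 24 h, 61 to 70 at 72 h, 17 to 57 from 1 to 6 h, 5 to 24 from 6 to 24 h, and 12 to 34 from 24 to 72 h. Lower ones numbered 1 to 3 at 24 h, 2 to 3 at 72 h, and 3 to 4 from 6 to 24 h and from 24 to 72 h. Median changes ranged from 0.2112 to 0.2932 at 6 h, 0.3019 to 0.4158 at 24 h and 0.5287 to 0.6072 at 72 h. The summed share at 10 min minus sham (-0.039 to 0.0079 percentage points) had no stable sign, and was 0.0285 by FPKM.

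With the replicate number as a block, 25, 62 and 65 members rose at 6, 24 and 72 h. No pairing by these numbers is stated. Over 45 pairs of same-numbered libraries the correlation of deviations ranged from -0.26 to 0.25, and 4 were over 0.1. With groups of 3 this cannot settle whether same-numbered mice shared a batch. All members passed the low count filter, which their minimum mean count made likely, so how far depth limits them was not measured. With 3 mice per group, exact permutation tests cannot go below p = 0.1.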

Other observations

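Myc, a transcription factor known to drive ribosome production, and the assembly factors Gnl3 and Nop58 were picked for their values after these were seen. Myc held 2.15 CPM ± 0.246 in sham, 5.97 ± 0.490 at 1 h, 41.4 ± 17.9 at 6 h, 27.4 ± 15.3 at 24 h and 15.6 ± 2.57 at 72 h (SD, n = 3). It rose by 4.26 on the log2 scale at 6 h, and at 1 h all 3 of its libraries lay above sham, at 1.47 (edgeR adjusted p = 0.35). Gnl3, a nucleolar GTPase, and Nop58, a core protein of box C/D particles, rose by 1.4 and 1.17 at 6 h. At that time their highest library was 6 h replicate 1 (51.3 and 56.1 CPM), as it was for Myc (61.7 CPM), and at 24 h the highest was replicate 3 for all 3 genes. The ribosomal protein median was 0.25 in that 6 h library, beside 0.28 and 0.24 in replicates 2 and 3. In that 24 h library it was 0.33, beside 0.28 and 0.47 in replicates 1 and 2. Both libraries also had the highest summed neutrophil markers of their groups (772 CPM at 6 h and 755 CPM at 24 h). Whether the ribosomal protein level follows Myc, Gnl3 and Nop58 was not tested.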
